A study of Homo sapiens with 4 samples.

Results

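The aminoacyl-tRNA synthetases were examined after *SOX2* knockdown in LN229, a human glioblastoma cell line. The genes were taken as every gene probe whose deposited gene name holds the words tRNA synthetase, which gave 41 probes. Averaged by gene ID, they made 38 features out of 27739. The study compared cells transfected transiently with siRNA against *SOX2*, a transcription factor of stem cells, with mock cells that received a non-targeting control siRNA, in 2 arrays per group. Both groups were grown in the same medium and went through transfection, the labels give no untransfected sample, and all arrays are of 1 cell line. The methods describe the arrays of a group as biological replicates with separate transfections.

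Aminoacyl-tRNA synthetases attach each amino acid to its own tRNA and so supply the charged tRNAs that ribosomes use. Most amino acids have one enzyme for the cytosol and another, encoded by a separate nuclear gene, for the mitochondrion, while single genes for glycine and lysine serve both compartments. In the cytosol several synthetases are held together with scaffold proteins in the multisynthetase complex. When amino acids run short or the endoplasmic reticulum is stressed, the transcription factor ATF4 raises a set of genes for amino acid transport, amino acid synthesis and tRNA charging, and it does so at C/EBP-ATF response elements.

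All 38 features stood out from noise, since their signal-to-noise ratio (S/N) was above 3 on every array, and the lowest value was 3.79, for *SARS2*. The unit of a signal is the 75th percentile of all features on that array. A log2 change is the mean log2 signal of the *SOX2* knockdown arrays minus that of the mock arrays, with the standard error (SE) that limma fitted, and a ratio is that of the linear means. Array symbols are old and are used here as printed in the files. *GARS*, *YARS*, *CARS*, *AARS*, *WARS*, *TARS*, *IARS* and *MARS*, for example, are now *GARS1*, *YARS1*, *CARS1*, *AARS1*, *WARS1*, *TARS1*, *IARS1* and *MARS1*. In 3 features the name is not that of a synthetase alone. The probe named *HARS2* carries the transcript of *DTD1*, a D-tyrosyl-tRNA deacylase, *AARSD1* is an editing-domain protein, and the probe named *VARSL|GTF2H4* carries the transcript of the general transcription factor subunit *GTF2H4*.

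RNA input was 250 ng for each array, and between 63.5% and 68.9% of gene probes had S/N over 3. The *SOX2* signal was 0.454 and 0.682 on mock arrays and 0.204 and 0.145 on knockdown arrays, a log2 change of -1.69 (SE 0.28, limma adjusted p 0.114). The knockdown arrays were both lower than either mock array. Because the treatment text names sw620, a colon cancer line, in place of LN229, markers were examined. Of 7 glial markers 6 had S/N over 3 on all 4 arrays and *SOX9* on none. Their summed signal, nearly all from *VIM*, *S100B* and *CD44*, was 97.2 and 113 in mock knockdown and 102 and 90.5 in *SOX2* knockdown. *GFAP*, *NES* and *OLIG2* were low, between 0.0997 and 1.07 on every array. Of 7 colon epithelium markers only *CDH1* and *VIL1* passed on all 4 arrays and *KRT20* on none, and the sum, nearly all from *CDH1*, was 14.1 and 49.4 in mock and 22.2 and 47.0 in knockdown. *CDH1* was thus high on the second array of both groups, and its part in the results was not tested. Over all features the mock arrays differed from each other more than the knockdown arrays did, with a median absolute log2 difference of 0.22 against 0.16. For the 38 features these differences were 0.16 and 0.15.

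The data show a subset of synthetase genes with higher signals after *SOX2* knockdown, led by *GARS*, with most of the family close to its mock level. In RNA of a whole culture, a change in the RNA per cell and a change in which cells are present cannot be told apart. *GARS*, *PARS2*, *YARS*, *CARS*, *AARS*, *WARS*, *TARS*, *MARS* and *YARS2* had log2 changes of 0.36 to 0.91 with an unadjusted limma p under 0.05, and *QARS*, at -0.38, was the one feature with such a p on the lower side. None passed an adjusted p of 0.05, and none differed 2-fold. For 8 of the 29 features with a promoter sequence, the promoter held the core letters of a C/EBP-ATF response element, and 7 of those 8 had a log2 change over 0.36. The cytosolic and mitochondrial classes had medians close to 0 and to each other.

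The stretches of promoter that hold this core are printed first, because they are what most of the synthetases with high changes share. The core searched was TGATGNAA, read on both strands, so that TTNCATCA counts as well. Each line gives 30 bases on the strand of the gene, 5′ to 3′, from RefSeq (GRCh38.p14), with the matching letters in capitals. They are ordered from the highest log2 change to the lowest.
GARS: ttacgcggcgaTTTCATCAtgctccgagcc
CARS: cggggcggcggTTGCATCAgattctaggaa
AARS: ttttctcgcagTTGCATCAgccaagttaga
TARS: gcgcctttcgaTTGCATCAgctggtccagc
IARS: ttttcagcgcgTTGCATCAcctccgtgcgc
MARS: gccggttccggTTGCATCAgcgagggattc
YARS2: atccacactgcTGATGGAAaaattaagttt
NARS: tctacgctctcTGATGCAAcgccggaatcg
In *CARS*, *AARS*, *TARS*, *IARS* and *MARS* the match is TTGCATCA, and in *NARS* it is TGATGCAA, the same letters on the opposite strand. *GARS* holds TTTCATCA and *YARS2* holds TGATGGAA.

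The stretch of *GARS* lies at chr7:30594834-30594863 on the plus strand, with the first base of the match at position -33 from the start of transcription. That of *CARS* is at chr11:3057407-3057436 on the minus strand with its match at -2, and that of *AARS* at chr16:70289675-70289704 on the minus strand with its match at -187. *TARS* has its stretch at chr5:33440956-33440985 on the plus strand, where the match begins 3 bases into the transcript. *IARS* (chr9:92293692-92293721, minus strand) has its match at -13 and *MARS* (chr12:57488053-57488082, plus strand) at -4. *YARS2* (chr12:32756076-32756105, minus strand) has its match at -197, and *NARS* (chr18:57621804-57621833, minus strand) 15 bases into the transcript. All 8 stretches thus lie in the promoter or at the start of the first exon, and in *GARS*, *CARS*, *TARS*, *IARS*, *MARS* and *NARS* the match was close to the start.

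Promoter windows of 250 bases before and 50 bases after the start were found for 29 of the 38 features, and those without one include *YARS*, *AARSL*, *VARS*, *VARSL*, *TARSL2*, *LARS* and *AARSD1*. The windows of the probes named *HARS2* and *VARSL|GTF2H4* are those of *DTD1* and *GTF2H4*. TGATGNAA occurred for 8 of 29 features (27.6%), beside 1217 of 27305 genes (4.46%) over all RefSeq windows. Among the 9 features with an unadjusted p under 0.05 and a higher signal, 8 had a window and 6 of those held the letters (75%), with no match in *WARS* and *PARS2*. Of the other synthetases with a window, 2 of 21 (9.52%) held them, *IARS* and *NARS*. The core letters of SOX factors, CATTGT on either strand, occurred for 1 of the 29 (3.45%), *FARSLB*, and for 13% of all genes. No synthetase window held both motifs. The 8 features with TGATGNAA had a median log2 change of 0.44, from -0.01 to 0.91, and the 21 with a window and no match had a median of 0.02, from -0.38 to 0.63. Among all features kept with a RefSeq symbol and a window, synthetases included, 323 had a promoter with the letters and 10414 had none. The median log2 change was 0.01 with the letters and -0.01 without. An unadjusted limma p under 0.05 with a higher signal was found for 14.6% and 8.83% of these. The letters were thus common among the synthetases with high changes, while genes with the letters did not have high changes in general. For *GARS*, *CARS* and *TARS* RefSeq gives 2 windows each, and the match lies in 1 of them. A match is a description of the sequence and not a binding site.

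**Figure D1:**
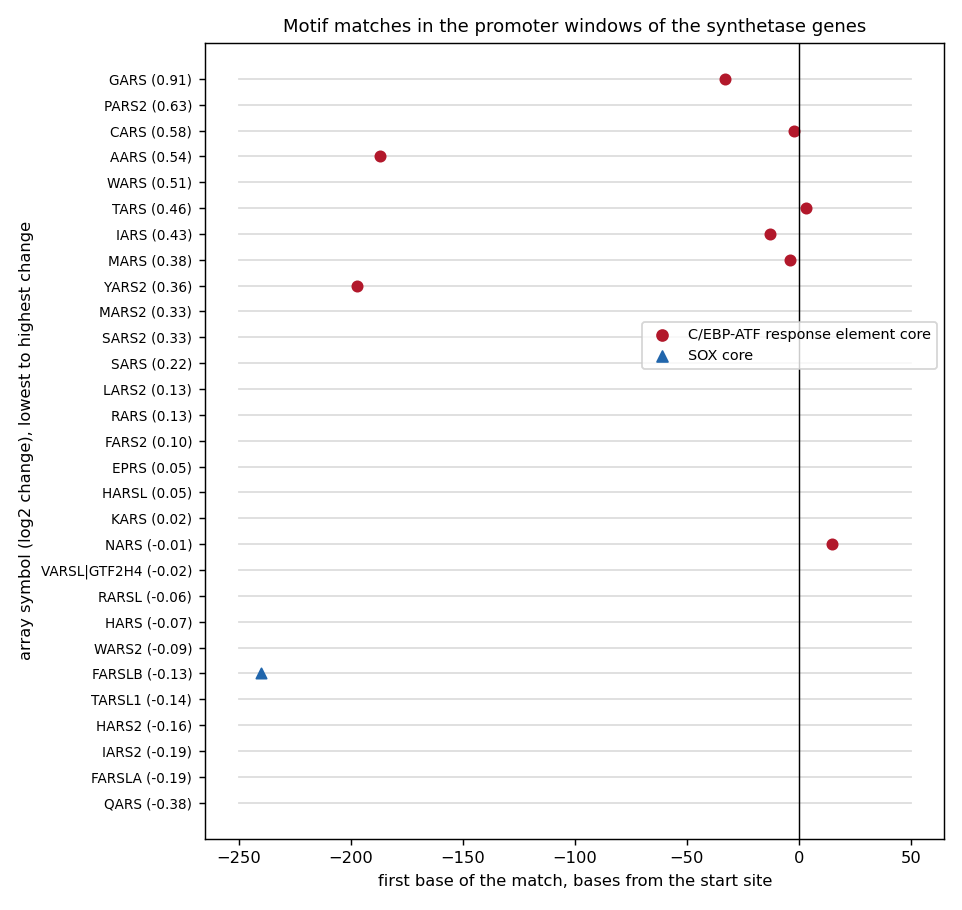
Each line is the promoter window of one synthetase feature, ordered by log2 change from highest (top) to lowest (bottom), with the change in parentheses, and the x axis is the distance in bases from the start of transcription. Circles mark the first base of a match to the C/EBP-ATF response element core and the triangle a match to the SOX core. Of the 8 circles, 7 belong to features with log2 changes of 0.36 to 0.91, and the eighth belongs to *NARS* at -0.01.

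The glycyl enzyme, *GARS* (gene ID hCG39136.3), stood highest. It charges tRNA with glycine in both the cytosol and the mitochondrion and is mutated in an inherited axonal neuropathy. Its signal was 2.81 and 3.23 on mock arrays and 6.02 and 5.34 on knockdown arrays. Both knockdown arrays lay well above both mock arrays, and even the closest pair differed 1.65-fold. Mock knockdown had a mean of 3.02 ± 0.296 (SD, n = 2). The mean for *SOX2* knockdown was 5.68 ± 0.483 (SD, n = 2), which gives a ratio of 1.88. The log2 change of 0.91 (SE 0.15) exceeded the replicate spread, but its adjusted p was 0.112 by limma with Benjamini-Hochberg adjustment over 18378 features. With a variance trend in limma it was 0.0425, the one alternative under which a synthetase passed 0.05. That setting called 240 of all 18378 features. Without the second mock array the ratio passed 2-fold.

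*YARS* (hCG39689.2), the cytosolic tyrosyl enzyme, gave 1.86 and 2.30 on mock arrays and 3.32 and 3.11 on knockdown arrays. The groups did not overlap, and the ratio was 1.54 with a log2 change of 0.63 (SE 0.16, limma adjusted p 0.180). *PARS2* (hCG1641860.4), which charges mitochondrial tRNA with proline, had the same log2 change. It gave 0.382 and 0.499 in mock knockdown and 0.715 and 0.642 after *SOX2* knockdown, also without overlap, with a ratio of 1.54 and a log2 change of 0.63 (SE 0.18, limma adjusted p 0.213). *GARS*, *YARS* and *PARS2* were the 3 features over 1.5-fold higher, which is 7.89% of the synthetases beside 5.08% of all features kept. No synthetase was over 1.5-fold lower, where 4.78% of all features were.

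*CARS* (hCG16441.3), for cysteine, followed with 1.17 and 1.34 on mock arrays and 2.06 and 1.72 on knockdown arrays. Its ratio lay just under 1.5, and the log2 change was 0.58 (SE 0.16, limma adjusted p 0.203). *AARS* (hCG32613.3), for alanine, gave 3.11 and 3.58 in mock knockdown and 5.13 and 4.57 after *SOX2* knockdown. Neither gene had overlapping groups. The log2 change of *AARS* was 0.54 (SE 0.15, limma adjusted p 0.201), and it rests on 1 bright probe. That probe had a ratio of 1.46, whereas a second *AARS* probe to the same transcript gave 0.247 and 0.191 on mock arrays and 0.151 and 0.198 on knockdown arrays, a ratio of 0.795 with overlapping groups. The probes of *AARS* therefore disagree in direction. A further probe of this gene ID has no name in the files.

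*WARS*, the tryptophanyl enzyme and a known interferon-responsive gene, gave 6.56 and 7.57 on mock arrays and 10.7 and 9.41 on knockdown arrays, a ratio of 1.42. *TARS*, for threonine, gave 2.48 and 2.65 against 3.77 and 3.28, a ratio of 1.37, and all of it came from 1 probe, since the second had no S/N over 3. *IARS*, for isoleucine, gave 2.53 and 2.89 against 4.15 and 3.21, a ratio of 1.36 with a wider spread between the knockdown arrays. In each of these genes the first knockdown array was the highest of the 4 and the first mock array the lowest. *MARS*, for methionine, gave 3.39 and 3.31 against 4.45 and 4.26, a ratio of 1.30. *YARS2*, the mitochondrial tyrosyl enzyme, gave 1.79 and 1.88 against 2.45 and 2.27, a ratio of 1.29. The groups did not overlap for any of these 5 genes, and the unadjusted limma p was under 0.05 for all of them but *IARS* (0.0715).

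**Figure D2:**
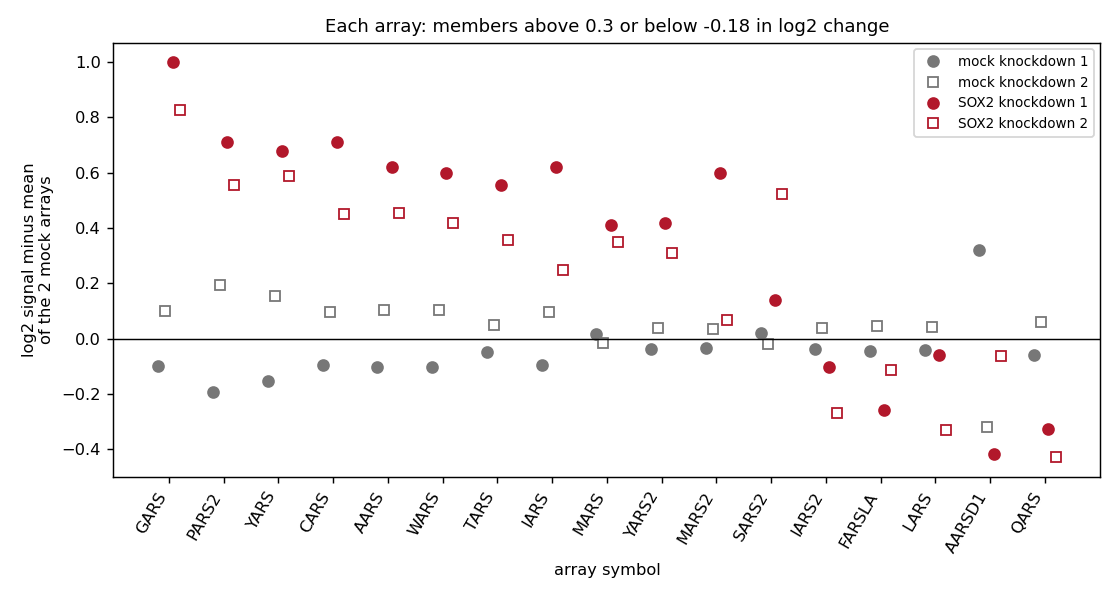
For the 12 features with a log2 change over 0.3 and the 5 under -0.18, points show the log2 signal of each array minus the mean of the mock arrays, with grey for mock knockdown, red for *SOX2* knockdown, filled circles for the first replicate and open squares for the second. The red points lie above both grey points for all 12 features on the left, and for all of these but *SARS2* the first knockdown array is the higher of its pair. On the right the groups overlap for *AARSD1*.

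On the lower side, *QARS* (hCG96727.3), the glutaminyl enzyme of the multisynthetase complex, gave 4.62 and 5.01 on mock arrays and 3.84 and 3.58 on knockdown arrays. Both knockdown arrays were below both mock arrays, with a ratio of 0.769, and the log2 change was -0.38 (SE 0.13, unadjusted p 0.0385, limma adjusted p 0.261). *AARSD1* (hCG16967.3) gave 5.18 and 3.32 against 3.11 and 3.97, so the groups overlapped and the log2 change of -0.24 was smaller than its SE of 0.27. *LARS* (hCG1782246.2), the leucyl enzyme that also serves as a leucine sensor for mTORC1, gave 7.10 and 7.53 against 7.01 and 5.82, where the first knockdown array almost reached the mock level and the log2 change was -0.19 (SE 0.15). *FARSLA* (hCG172485.2), the alpha subunit of the cytosolic phenylalanyl enzyme, gave 3.37 and 3.59 against 2.91 and 3.21. Its groups did not overlap, and its log2 change was -0.19 (SE 0.13).

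The other features lay between. *MARS2* and *SARS2*, both of low signal, had log2 changes of 0.33 each with SEs of 0.22 and 0.18, and *SARS* had a log2 change of 0.22. *LARS2*, *RARS*, *FARS2*, *AARSL*, *EPRS*, *HARSL*, *KARS* and *VARS* had values from 0.01 to 0.13. *NARS*, *VARSL|GTF2H4*, *RARSL*, *HARS*, *WARS2*, *VARSL*, *TARSL2*, *FARSLB*, *TARSL1*, the *HARS2* probe and *IARS2* had values from -0.19 to -0.01. The groups did not overlap for *MARS2*, *SARS2*, *SARS*, *RARS*, *FARS2* and *HARSL* on the higher side and for *TARSL2*, the *HARS2* probe and *IARS2* on the lower side, and they overlapped for the others named here. No value had an unadjusted limma p under 0.05.

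Counted over the family, 22 of 38 features had a log2 change above 0 (57.9%, beside 50.3% of all features kept) and 16 below (49.7% of all features), and the median was 0.03 beside 0.00 over all features. Knockdown arrays lay above mock arrays without overlap in 16 features (42.1%, beside 21.6%) and below in 7 (18.4%, beside 25.7%), and 15 overlapped. An unadjusted limma p under 0.05 was reached by 9 features on the higher side (23.7%, beside 8.12%) and by 1 on the lower side (2.63%, beside 9.07%). The 9 were 2 without the first mock array, 6 without the second, 1 without the first knockdown array and 2 without the second, and they were 3 with array median scaling and 2 with the replicate number as a block. No feature of the array passed an adjusted p of 0.05 (0 of 18378, with 3158 at an unadjusted limma p under 0.05), and at an adjusted p under 0.1, which 0.626% of features reached with a higher signal and 0.278% with a lower one, there was no synthetase. No synthetase was over 2-fold higher (1.47% of all features) or lower (0.909%). In the fit without a block the share of synthetases with higher signals was thus above the background for separate groups and for the unadjusted p. It was near the background for the 1.5-fold limit. With the replicate number as a block, 2 of 38 synthetases and 1647 of 18378 features had such a p in either direction. There the synthetases were not above the background, and for the other alternatives no share over all features is given. Genes of the family are not independent of each other, and no test of the family was made.

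**Figure D3:**
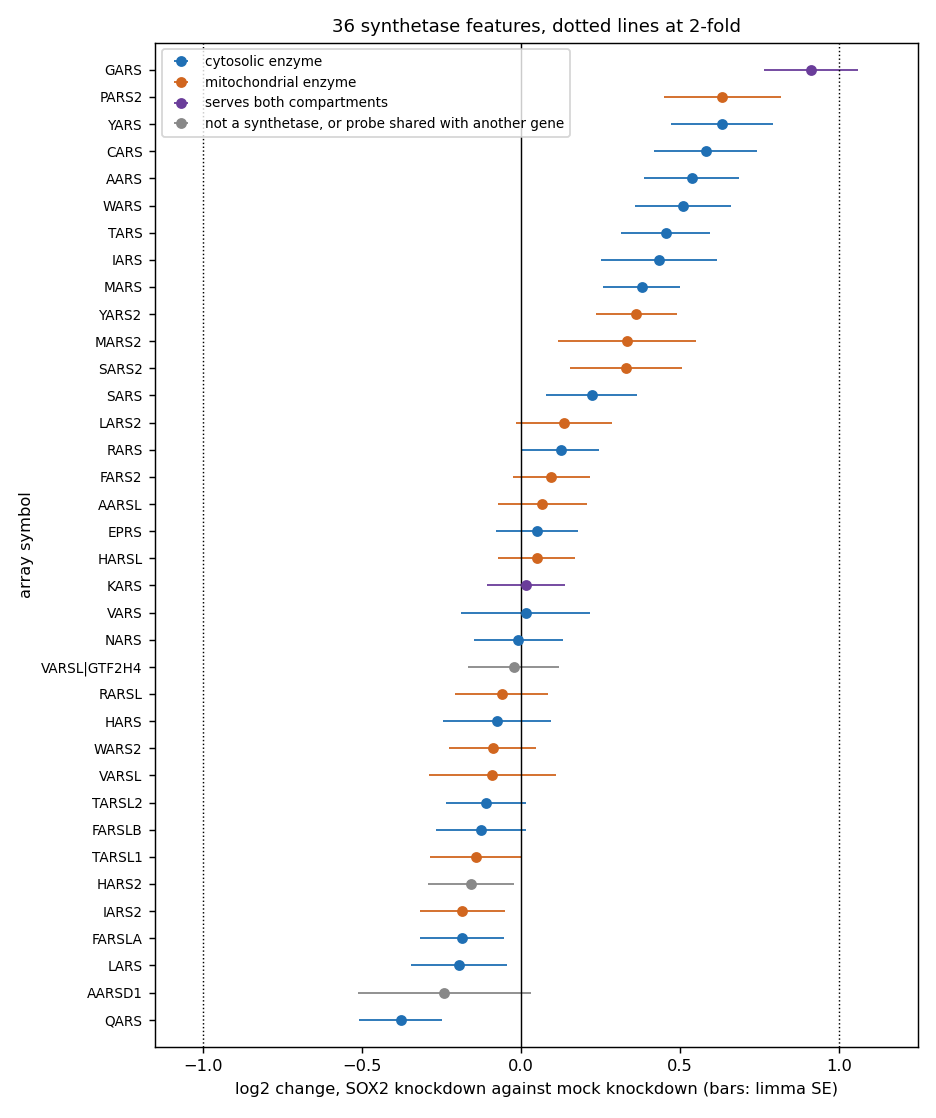
Points show the log2 change of *SOX2* knockdown against mock knockdown for 36 of the 38 synthetase features and bars the limma SE, coloured by the compartment the enzyme is known to serve. The dotted lines mark 2-fold, which no point reaches, with *GARS* closest at 0.91 and *QARS* lowest at -0.38.

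The cytosolic enzymes were then compared with the mitochondrial ones. By gene name or a symbol ending in 2 or 2L, 11 features counted as mitochondrial and 27 as cytosolic. The cytosolic class had 16 features above 0 and 11 below, with a median log2 change of 0.02, and the mitochondrial class had 6 and 5 with a median of 0.10. An unadjusted p under 0.05 on the higher side was reached by 7 cytosolic features (25.9%) and by 2 mitochondrial ones (18.2%), beside 8.12% of all features kept, and on the lower side by 1 cytosolic feature and no mitochondrial one, beside 9.07%. The 7 cytosolic features became 2, 5, 1 and 2 when the first mock, second mock, first knockdown or second knockdown array was left out. In the mitochondrial class 5 of 11 features were separate on the higher side and 4 on the lower, and in the cytosolic class 11 and 3 of 27, where 21.6% and 25.7% of all features kept were. The difference of the medians, cytosolic minus mitochondrial, was -0.08, and it turned to 0.12 with normexp background correction and to 0.0034 and 0.012 when the first or the second knockdown array was left out. No order of the classes can be read from it, and with 2 arrays per group no test of it was made.

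Symbols place some enzymes in the wrong compartment. *AARSL*, *HARSL*, *RARSL*, *TARSL1* and *VARSL* are the mitochondrial enzymes now named *AARS2*, *HARS2*, *RARS2*, *TARS2* and *VARS2*, and *TARSL2* is the cytosolic *TARS3*. By the known location there were 19 cytosolic features, 14 mitochondrial ones, 2 that serve both compartments (*GARS* and *KARS*) and 3 left unassigned. The medians were then 0.05 for the cytosolic and 0.06 for the mitochondrial enzymes, a difference of -0.01. In the cytosolic class 12 features were above 0 and 7 below, and 9 were separate on the higher side and 4 on the lower. In the mitochondrial class the counts were 8 and 6, and 6 and 2. Separate on the higher side were thus 47.4% of cytosolic and 42.9% of mitochondrial features, beside 21.6% of all features kept. On the lower side these shares were 21.1% and 14.3%, beside 25.7%. An unadjusted p under 0.05 with a higher signal was found for 6 of 19 cytosolic (31.6%) and 2 of 14 mitochondrial features (14.3%), beside 8.12% of all features kept. The genes for both compartments differed from each other, since *KARS* gave 7.32 and 7.28 on mock arrays and 7.62 and 7.16 on knockdown arrays, with overlap and a log2 change of 0.02, while *GARS* was at 0.91.

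For 14 combinations a cytosolic and a mitochondrial enzyme for the same amino acid could be set side by side, and in 9 of them the cytosolic one had the higher log2 change. The median difference between the changes, cytosolic minus mitochondrial, was 0.08. It was largest for isoleucine, where *IARS* had a log2 change of 0.43 and *IARS2* of -0.19. Threonine (*TARS* 0.46, *TARSL1* -0.14) and tryptophan (*WARS* 0.51, *WARS2* -0.09) showed the same order, as did alanine (*AARS* 0.54, *AARSL* 0.07). For tyrosine both enzymes were high (*YARS* 0.63, *YARS2* 0.36), and for methionine as well (*MARS* 0.38, *MARS2* 0.33). The opposite order was seen for leucine (*LARS* -0.19, *LARS2* 0.13) and for both subunits of the cytosolic phenylalanyl enzyme (*FARSLA* -0.19, *FARSLB* -0.13) against *FARS2* (0.10). On the difference of log2 signals within an array, knockdown arrays were all above mock arrays in 6 combinations and all below in 3. Among single features, 21.6% and 25.7% of all features kept were separate on the higher and the lower side. No such share was computed for differences between genes, so the counts have no background of their own. *TARSL1* and *FARS2* each enter in 2 combinations, and these differences were not tested.

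**Figure D4:**
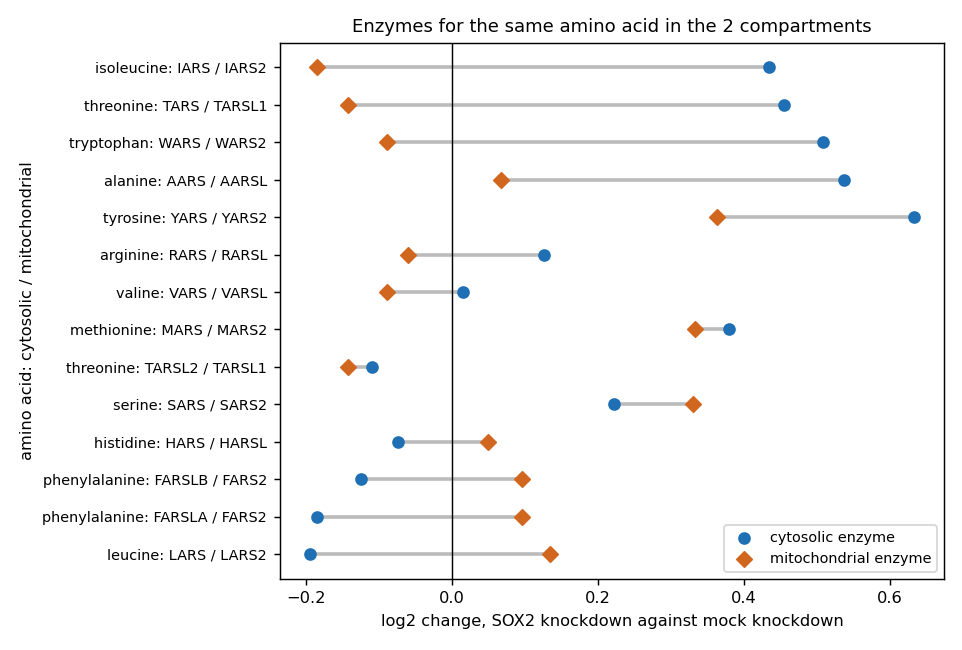
Each row joins the log2 change of a cytosolic enzyme (circle) and of the mitochondrial enzyme for the same amino acid (diamond). The circle lies to the right in 9 of 14 rows, most for isoleucine (0.43 against -0.19), and to the left for serine, histidine, phenylalanine and leucine.

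Within the cytosolic enzymes, membership of the complex and the catalytic class were examined. The 8 synthetases of the multisynthetase complex had a median log2 change of 0.03, with *IARS* at 0.43 and *QARS* at -0.38 as the extremes. The 12 cytosolic enzymes outside it had a median of 0.12. An unadjusted limma p under 0.05 with a higher signal was found for 5 of these 12 (41.7%). It was found for 1 of the 7 in the complex that serve the cytosol alone (14.3%). Over all features kept the share was 8.12%. Counts of this kind over the family fell with any array left out, as given above. Class I enzymes, which share a Rossmann fold, had a median of 0.38 over 9 features, 7 of them above 0. Class II enzymes, built on an antiparallel sheet, had a median of -0.01 over 9 features, 4 of them above 0. These are descriptions of small sets, and the differences were not tested. The 3 scaffold proteins of the complex had values on both sides, with *AIMP2* at 0.26, *EEF1E1* at -0.07 and *AIMP1* at -0.19, and none had an unadjusted p under 0.05.

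Other genes of protein synthesis gave a mixed picture. Of 10 cytosolic elongation factor genes 5 were above 0 (50%, beside 50.3% of all features kept), and the median was 0.02. The groups were separate on the higher side in 2 (20%, beside 21.6%) and on the lower side in 3 (30%, beside 25.7%). *EEF1A2*, the tissue-restricted form of the factor that brings charged tRNA to the ribosome, gave 0.213 and 0.256 on mock arrays and 0.640 and 0.660 on knockdown arrays. Its groups lay far apart, with a ratio of 2.77 and a log2 change of 1.47 (SE 0.15, limma adjusted p 0.0833). *EIF5A2* followed at 0.30, and *EEF1G* (-0.16) and *EEFSEC* (-0.15) were lowest. Of 20 genes of mitochondrial translation 13 were above 0 (65%) with a median of 0.11. *MTO1*, which modifies mitochondrial tRNA, was at 0.61 (SE 0.20), *MRRF* at 0.36 and *TRMU* at 0.34, while *TUFM*, the mitochondrial elongation factor Tu, was at -0.59 (SE 0.18) with 4.50 and 5.91 on mock arrays and 3.56 and 3.31 on knockdown arrays. In each direction 1 gene of this list (5%) had an unadjusted limma p under 0.05. That is below the 8.12% of all features kept on the higher side and the 9.07% on the lower. By contrast, the groups were separate on the higher side in 9 genes (45%, beside 21.6%) and on the lower side in 3 (15%, beside 25.7%). The share on the higher side was thus near the 42.1% of the synthetases.

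Of 38 genes of tRNA processing and export 36 were counted, with 25 above 0 and a median of 0.12. *DTD1* was counted among the synthetases instead, through the probe named *HARS2*, and *TSEN54* was not kept. Among the 36, an unadjusted limma p under 0.05 was found for 1 on the higher side and 2 on the lower side (2.78% and 5.56%), which is below the background of all features. The groups were separate on the higher side in 14 (38.9%, beside 21.6%) and on the lower side in 6 (16.7%, beside 25.7%). On the higher side this share was near the 42.1% of the synthetases. *SEPSECS*, which makes selenocysteine on its tRNA, was at 0.41 and *XPOT*, the tRNA exporter, at 0.38. *RPP25*, a protein of RNase P, was at -0.65 (SE 0.12) and *ADAT2*, of the tRNA adenosine deaminase, at -0.46.

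The amino acid response genes were the list with the highest values. Of 34 measured genes 31 had a log2 change above 0 (91.2%, beside 50.3% of all features), and the median was 0.78. Of the 34, 31 had S/N over 3 on all 4 arrays. Among those 31, 29 had a log2 change above 0, with a median of 0.78, and 26 were separate on the higher side (83.9%, beside 21.6% of all features kept). At a limma adjusted p under 0.1 there were 8 of the 31, all higher (25.8%, beside 0.626% of all features with a higher signal), and at 0.05 none. *SESN2*, a leucine sensor and stress protein, gave 3.85 and 5.60 on mock arrays and 18.9 and 21.6 on knockdown arrays, a log2 change of 2.12 (SE 0.23, limma adjusted p 0.0838). *CHAC1*, which degrades glutathione, gave 0.0979 and 0.102 against 0.411 and 0.425, a log2 change of 2.07 (SE 0.12, limma adjusted p 0.07). *TRIB3*, a pseudokinase induced by ATF4, gave 2.37 and 2.19 against 7.95 and 8.48, a log2 change of 1.85 (SE 0.13, limma adjusted p 0.07). In all 3 the knockdown arrays lay far above the mock arrays. *INHBE*, a secreted inhibin subunit, had S/N over 3 on both knockdown arrays and on neither mock array, so it was kept through the knockdown group alone and is not among the 31 with S/N over 3 on all arrays. Its signal was 0.0417 and 0.0339 on mock arrays, not above an S/N of 3, and 0.376 and 0.332 on knockdown arrays. *SLC7A1* was likewise kept through the knockdown group alone, and *FGF21* through the mock group alone, so neither is among the 31. The list was drawn up with earlier results of these data known, so its direction is no independent evidence. Its genes held TGATGNAA in the promoter in 10 of 27 cases (37%), beside 27.6% of synthetases. The changes of the synthetases, with a highest ratio of 1.88, were smaller than those of the leading genes of this list.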

How the data were processed

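Biotin-labelled RNA of LN229 cells was measured on 1-colour chemiluminescent oligonucleotide arrays (Applied Biosystems Human Genome Survey), 2 per group. Groups were taken from the source names in the labels and replicate numbers from the titles. The deposited scanner files hold, per the file headers, a normalized signal (an intensity on a linear scale), a raw intensity, flags and a signal-to-noise score (S/N) per probe. The authors also deposited a table of linear ratios per probe, made with GeneSpring, which was used as an alternative. The version of the scanner software is not given in the sources used here. No column of the authors' own comparisons was used.

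Control features and 210 probes with a flag of 5000 or more were left out. Signals and S/N of probes with the same Celera gene ID were averaged, whereas the methods describe averaging raw intensities. Each array was divided by its 75th percentile (between 6.12 and 7.07), floored at 0.01, and log2 was taken. A feature was kept if S/N exceeded 3 on both mock or both knockdown arrays (18378 of 27739). Groups were compared by the 2-fold limit on linear means that the methods use and by limma 3.58.1 in R 4.3.3 (two-sided, without a block), adjusted by Benjamini-Hochberg over the 18378 features. The script was tested on simulated data. The small number of arrays limits the precision, and p-values measure the spread between these arrays.

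Members and lists were chosen with earlier results of these data known. Named with the value on every array were synthetases with S/N over 3 on all 4 arrays, separate groups and a ratio over 1.5, and the 5 highest and 5 lowest. A pair of features, 1 of them among the 5 lowest, is not reported here by itself but stays in the family counts. *WARS*, *TARS*, *IARS*, *MARS*, *YARS2* and *KARS* were added after their values were seen, and for the lists the 4 largest changes were named. List genes named without a value are given only for how they were kept or counted. Of the 38 features all matched a RefSeq gene (GRCh38.p14) by symbol, synonym or accession, and locations, classes and complex membership are background knowledge. Promoter sequences are RefSeq's and were searched on both strands. Alternatives covered scaling, the series table, normexp (offset 50), the floor (0.05), S/N filters, single probes, the variance model, the replicate block, each array left out, known locations, a 1.5-fold limit and the flag limit.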

Additional observations from a re-analysis of the deposited data

How the results depend on the processing

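With 2 arrays per group, leaving out 1 array decided several counts. The cytosolic features with an unadjusted p under 0.05 and a higher signal (7 in all) numbered from 1 to 5 with an array left out, 2 with array median scaling, 2 in the series value table and 2 with the replicate block. They were 1 without the first knockdown array and 2 without the first mock or the second knockdown array, and a lone array is then assumed to vary like the other group. The replicate block left 2 of the 10 synthetases with an unadjusted p under 0.05. It lowered the features of the whole array at that p from 3158 to 1647, and those at an adjusted p under 0.1 from 115 higher and 51 lower to 0, the amino acid response genes included. Of the other counts of synthetases by compartment that were run again (2-fold limits, adjusted p under 0.05, mitochondrial features with a lower signal) it changed none. The synthetase features with an adjusted p under 0.05 were 1 with a variance trend (*GARS*), where 240 of all 18378 features passed, and 0 otherwise. The cytosolic features over 2-fold higher ranged from 0 to 1 with an array left out, and at 1.5-fold there were 2 cytosolic and 1 mitochondrial. The mitochondrial features with an unadjusted p under 0.05 and a lower signal ranged from 0 to 1 and were 1 with normexp.

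The median log2 change ranged from 0.013 to 0.079 (cytosolic) and from 0.0099 to 0.12 (mitochondrial) with an array left out, and was 0.13 and 0.0086 with normexp. Their difference ranged from -0.039 to 0.012 with an array left out, and was -0.047 with quantile normalization, 0.12 with normexp and -0.0075 by known location. *SOX2* was called with array median scaling (log2 change -1.72, adjusted p 3.02e-07) and in the series value table (-1.72, adjusted p 6.63e-07). In both of these limma estimated infinite prior degrees of freedom, so 1 variance served all features, and 669 and 758 features passed an adjusted p of 0.05. Same-numbered arrays deviated in opposite directions (r = -0.50 across features, which are not independent). The first mock array thus tended to deviate with the second knockdown array, and the second mock array with the first knockdown array. The cause was not tested. A crossed pairing, chosen after seeing the data, gave 8 cytosolic features with an unadjusted p under 0.05 and a higher signal and 1 mitochondrial one with a lower signal.

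Of 576 values of single synthetases under alternatives, 22 changed sign. With quantile normalization *NARS* was at 0.026. With array median scaling *KARS* and *VARS* were at -0.017 and -0.018, and in the series value table at -0.010 and -0.011. With normexp *VARSL* was at 0.10 and *NARS* at 0.23. The ranges with an array left out that crossed 0 were, as log2 changes, *AARSD1* -0.56 to 0.080, *AARSL* -0.029 to 0.16, *EPRS* -0.020 to 0.12, *HARS* -0.24 to 0.092, *KARS* -0.030 to 0.061, *NARS* -0.095 to 0.079, *RARSL* -0.17 to 0.051, *VARS* -0.18 to 0.21, *VARSL* -0.26 to 0.079, *VARSL|GTF2H4* -0.13 to 0.078 and *WARS2* -0.19 to 0.0099. The causes were not tested.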
